A study of Mus musculus with 9 samples.

Results

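The 10 genes of eicosanoid synthesis and breakdown examined by name were Hpgd, Hpgds, Ptgs1, Ptgs2, Alox5, Alox5ap, Alox15, Ltc4s, Lta4h and Ptges. Every probe that the platform annotation assigns to them was taken, which gave 16 of the 45281 probes and 9 of the 10 genes. No probe carried the symbol Ptgs1, which was not analysed here. Of these 16 probes, 9 probes, from 5 genes (Hpgd, Hpgds, Alox5, Alox5ap and Ltc4s), passed a detection filter and were tested. The filter kept probes that 3 or more of the 9 arrays detected, each at a p-value below 0.01, and it left 9136 genes in all.

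Expression was measured on 9 single-colour Illumina mouse BeadChip arrays, 3 for each of 3 constructs. All cells were bone marrow cells of C57/Bl6 mice enriched for the receptor c-kit, transduced with a retrovirus and grown for 10 days in liquid medium. The cytokines were SCF (20 ng/µl), IL-6 (10 ng/µl) and IL-3 (10 ng/µl). The first group carried MN1, a transcriptional coactivator that transforms mouse marrow, and another MN1-TEL, its fusion to the ETS-family transcription factor TEL. The last group carried MN1-TEL del DBD, the fusion with a deletion labelled DBD, which commonly stands for DNA-binding domain. It is written del DBD here. The constructs were carried by retrovirus rather than by the endogenous loci, and no untransduced cells were among the samples. Whether the 3 replicates of a group came from separate cultures is not stated in the labels. The p-values therefore cover only variation among these samples, and that variation may be technical.

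Eicosanoids are lipid mediators made from arachidonic acid, which phospholipases and other lipases free from membranes. The cyclooxygenases Ptgs1 and Ptgs2 start the prostaglandin branch, in which Hpgds makes prostaglandin D2 and Ptges makes prostaglandin E2, and Hpgd inactivates prostaglandins by oxidation. In the leukotriene branch Alox5ap presents arachidonic acid to the lipoxygenase Alox5, and the product is turned into leukotriene B4 by Lta4h or into leukotriene C4 by Ltc4s. Among blood cells, neutrophils and macrophages are known for leukotriene B4, and mast cells, basophils and eosinophils for leukotriene C4, while mast cells also make prostaglandin D2.

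The promoter windows of the 4 genes below are shown because TEL belongs to the ETS family of transcription factors and because these genes differed between the groups. Of the 10 genes, 8 had a window in the RefSeq-based table (GRCm38.p6), which runs from 250 bases before to 50 bases after the annotated start. Capitals mark GGAA, the core of ETS sites, on either strand, so that TTCC is capitalised too. The windows lie at chr8:56294302-56294601 on the plus strand, chr6:65144681-65144980 on the minus strand, chr6:116461129-116461428 on the minus strand and chr11:50238483-50238782 on the minus strand.
Hpgd: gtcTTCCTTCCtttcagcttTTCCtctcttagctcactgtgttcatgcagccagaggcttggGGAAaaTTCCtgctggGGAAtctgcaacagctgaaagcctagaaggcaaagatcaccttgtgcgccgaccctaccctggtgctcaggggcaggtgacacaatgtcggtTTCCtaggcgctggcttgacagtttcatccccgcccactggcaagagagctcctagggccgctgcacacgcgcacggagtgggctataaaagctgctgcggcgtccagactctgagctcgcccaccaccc
Hpgds: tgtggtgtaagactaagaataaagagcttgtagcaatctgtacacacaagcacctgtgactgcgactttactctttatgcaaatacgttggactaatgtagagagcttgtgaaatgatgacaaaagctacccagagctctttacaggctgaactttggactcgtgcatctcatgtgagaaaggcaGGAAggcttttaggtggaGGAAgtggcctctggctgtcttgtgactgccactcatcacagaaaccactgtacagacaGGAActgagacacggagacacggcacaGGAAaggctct
Alox5: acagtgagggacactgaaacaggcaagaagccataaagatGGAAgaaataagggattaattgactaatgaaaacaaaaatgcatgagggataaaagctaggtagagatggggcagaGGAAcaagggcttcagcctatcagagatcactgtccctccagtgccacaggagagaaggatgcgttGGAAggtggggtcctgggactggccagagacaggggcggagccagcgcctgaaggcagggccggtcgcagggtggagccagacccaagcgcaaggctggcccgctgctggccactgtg
Ltc4s: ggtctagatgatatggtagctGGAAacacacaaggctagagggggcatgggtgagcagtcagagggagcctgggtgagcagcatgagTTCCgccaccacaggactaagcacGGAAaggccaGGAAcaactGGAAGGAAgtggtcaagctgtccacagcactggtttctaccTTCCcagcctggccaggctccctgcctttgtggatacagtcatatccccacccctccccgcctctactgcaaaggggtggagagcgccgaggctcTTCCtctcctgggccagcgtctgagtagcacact
The core GGAA was found 7 times for Hpgd, 4 times for Hpgds, 3 times for Alox5 and 8 times for Ltc4s. The median over 32851 windows of 300 bases was 3. Among the untested members it was found 7 times for Lta4h, 6 for Ptgs2, 3 for Ptges and 2 for Ptgs1. Alox5ap, which also differed between groups, and Alox15 had no window. The core occurred in 96.0% of all windows, so nearly every promoter holds it. The longer motif GGAAGT, which contains the core, was found on either strand in the windows of Hpgds, Ltc4s and Ptgs1 and in 23.8% of all windows. These matches describe letters only.

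The MN1 arrays had a mean raw intensity of 667 ± 30.8, those of MN1-TEL 943 ± 26.5 and those of del DBD 875 ± 20.8 (SD, n = 3 each), and 14249 to 15273 probes were detected per array. Pairs of MN1 arrays correlated at 0.993 to 0.994 across genes, pairs of MN1-TEL arrays at 0.975 to 0.990 and pairs of del DBD arrays at 0.992 to 0.994. The lower values in MN1-TEL were those of pairs with replicate 2. Kit, the receptor used for enrichment, was detected on all 9 arrays. Its log2 level was 14.39 ± 0.47 with MN1-TEL, 13.66 ± 0.14 with MN1 and 12.16 ± 0.20 with del DBD (SD, n = 3). The T cell markers Cd3d, Cd3e and Cd3g were detected on no array. With fewer cells of a type and less RNA per cell, a bulk level falls alike, and these cannot be told apart here.

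Levels are normalized log2 intensities, and differences are given for 1 probe at a time, since levels of different probes share no scale. A summed level of a marker list adds probes of unlike scale, follows its brightest probes and is given only as a description. Differences come from limma, with Benjamini-Hochberg adjusted p-values over the 9136 genes and a threshold of 0.05. Some probes were undetected on 1 or more arrays of the dimmer group, and for these only a bound on the fold is given, written as at least N-fold. The dim side of that fold is set, per array, to the dimmest detected signal on that array, or to the probe's own signal if this was brighter.

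MN1-TEL cells had far less Hpgd and more Hpgds, Alox5, Alox5ap and Ltc4s than MN1 cells. In del DBD cells Hpgd and Hpgds were both lower than with MN1, while Alox5ap and Ltc4s were higher than with MN1. Of the 5 tested genes, 4 rose and 1 fell in MN1-TEL against MN1, where 54.7% of all genes were called, 25.3% higher and 29.4% lower. With del DBD against MN1, 2 rose, 2 fell and Alox5 was not called, against 37.1% of all genes called, 18.0% higher and 19.1% lower. Between the fusions, with del DBD against MN1-TEL, 4 of the 5 were called, of which Hpgd rose and the other 3 fell, against 29.4% of all genes called and 14.4% called lower. This last number called was 2 in place of 4 without MN1-TEL replicate 3 or without del DBD replicate 1. The 5 genes passed the filter partly through the groups in which they were high, so these counts describe those genes and not the whole set of 10. The median difference of the 5 was 1.38, 0.43 and -0.68 (log2) in these comparisons, beside -0.06, -0.04 and 0.02 over all genes. Scaling the arrays to 1 median in place of quantile normalization changed the calls over all genes from 2309 higher and 2686 lower to 4497 and 1027 in MN1-TEL against MN1. It changed them from 1645 and 1741 to 3786 and 561 in del DBD against MN1, and from 1373 and 1316 to 1029 and 1606 in del DBD against MN1-TEL. No difference of the 5 genes changed its sign under that scaling. The comparisons share groups, so their values are given side by side only.

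**Figure D1:**
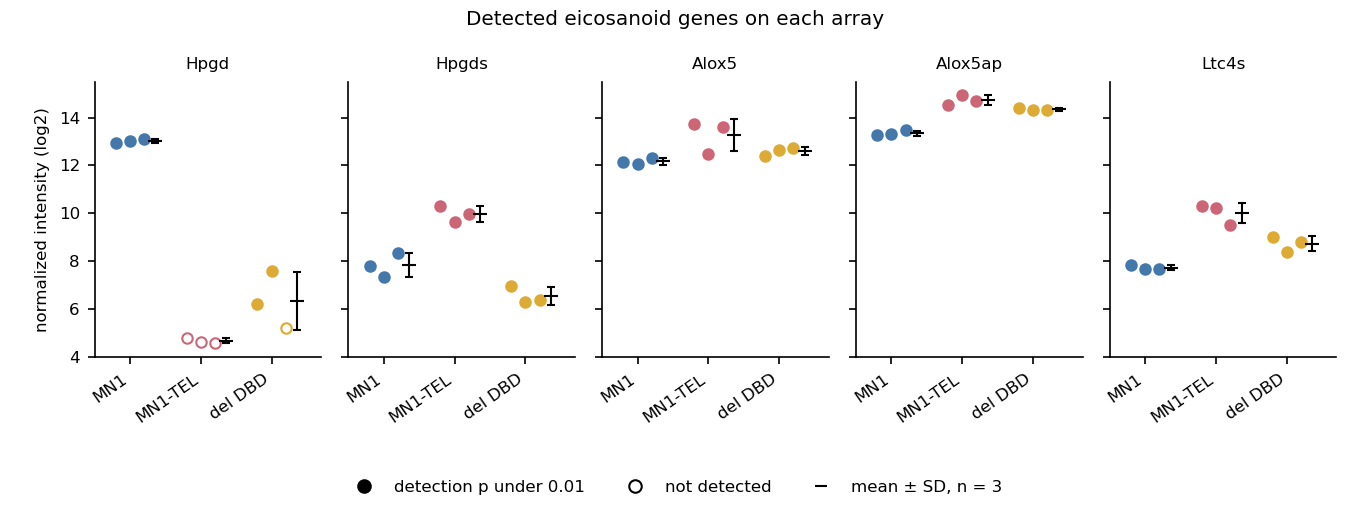
Normalized intensity (log2) of the 5 tested eicosanoid genes on each of the 9 arrays, with filled points for detected and open points for undetected signals and the mean ± SD of the 3 arrays beside each group. Hpgd lies between 12.92 and 13.10 on the MN1 arrays and at background on the MN1-TEL arrays, while Hpgds is highest in MN1-TEL and lowest in del DBD.

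Hpgd, the dehydrogenase that inactivates prostaglandins, was bright with MN1, at background with MN1-TEL and low with del DBD, where 2 of 3 arrays detected it. Its level was 12.92, 13.02 and 13.10 on the 3 MN1 arrays. On the MN1-TEL arrays it measured 4.80, 4.63 and 4.59 and was detected on none of them. The del DBD arrays gave 6.22, 7.59 and 5.19, and the last of these, replicate 3, was not detected. All MN1 values lay above all others, while the MN1-TEL arrays and del DBD replicate 3, all undetected, could not be ranked among themselves. Hpgd was at least 124-fold lower in MN1-TEL than in MN1 (adjusted p = 7.77e-07) and at least 83.7-fold lower in del DBD than in MN1 (adjusted p = 5.52e-06). Between the fusions it was at least 1.21-fold higher in del DBD (adjusted p = 0.0253). That bound rested on del DBD replicate 2. Without it the del DBD mean was 5.71, below the limit of 6.06 in MN1-TEL, so that no fold could be given, although the fit still called the gene (adjusted p = 0.0252). Leaving out MN1-TEL replicate 1, MN1-TEL replicate 3 or del DBD replicate 1 ended that call (adjusted p = 0.0535, 0.0636 and 0.0562), and all alternatives gave 0.00265 to 0.0859. A single probe measured Hpgd.

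Hpgds, the hematopoietic synthase of prostaglandin D2, was highest with MN1-TEL, intermediate with MN1 and lowest with del DBD. The MN1 arrays gave 7.79, 7.35 and 8.36, the MN1-TEL arrays 10.30, 9.64 and 9.95, and the del DBD arrays 6.97, 6.28 and 6.40, with all 9 detected. No array of a group overlapped with another group. Hpgds rose by 2.13 (log2, SE 0.28, adjusted p = 0.000190), or 4.38-fold, in MN1-TEL against MN1. It fell by 1.29 (SE 0.28, adjusted p = 0.00629) in del DBD against MN1 and by 3.42 (SE 0.28, adjusted p = 4.32e-05), or 10.7-fold, in del DBD against MN1-TEL. Each of the 3 calls held in all 20 alternatives. The other Hpgds probe was 2.30 higher in MN1-TEL than in MN1 (log2, adjusted p = 7.60e-05 in a limma fit of all 15870 probes kept). In del DBD it was at least 2.07-fold lower than in MN1 and at least 10.2-fold lower than in MN1-TEL (adjusted p = 0.00422 and 2.66e-05 in that fit). Of all probes, that fit called 48.8% in MN1-TEL against MN1 (23.0% higher, 25.7% lower), 31.4% in del DBD against MN1 (15.6% higher, 15.8% lower) and 23.4% in del DBD against MN1-TEL (11.9% higher, 11.5% lower). The other probe was detected on 1 of 3 del DBD arrays, and there its level was 6.01, 5.63 and 5.70. Hpgds and Hpgd thus differed in opposite directions in MN1-TEL against MN1 and in the same direction in del DBD against MN1. Between the fusions the fitted directions were opposite too, but there the Hpgd bound rested on 1 array, del DBD replicate 2.

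Alox5ap, the membrane protein that hands arachidonic acid to the lipoxygenase, was lowest with MN1 and higher with both fusions. At the brighter of its 2 probes the MN1 arrays gave 13.28, 13.30 and 13.46, the MN1-TEL arrays 14.53, 14.93 and 14.71, and the del DBD arrays 14.40, 14.31 and 14.31. The MN1 arrays lay below all others, and those of del DBD below those of MN1-TEL by a smaller gap. Alox5ap rose by 1.38 (SE 0.12, adjusted p = 1.33e-05) in MN1-TEL against MN1 and by 1.00 (SE 0.12, adjusted p = 0.000212) in del DBD against MN1. Its other probe gave 1.78 and 1.29 for these comparisons (adjusted p = 7.65e-07 and 1.01e-05 over all probes kept). Between the fusions it fell by 0.38 (SE 0.12, adjusted p = 0.0416) in del DBD. That call was lost when any single array except MN1-TEL replicate 1 was left out (adjusted p = 0.0538 to 0.115), and all alternatives gave 0.00611 to 0.115. The other probe gave -0.50 between the fusions (adjusted p = 0.00427 over all probes kept), with levels of 14.58 to 14.67 in MN1-TEL and 14.11 to 14.17 in del DBD.

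Alox5, the lipoxygenase that starts leukotriene synthesis, was higher with MN1-TEL than with MN1 at each of its 3 probes. The brightest probe gave 12.13, 12.05 and 12.31 on the MN1 arrays, 13.73, 12.48 and 13.60 on the MN1-TEL arrays and 12.41, 12.65 and 12.71 on the del DBD arrays. MN1-TEL replicate 2 was low at this probe and lay within the del DBD range. Alox5 rose by 1.11 (SE 0.28, adjusted p = 0.00897), or 2.15-fold, in MN1-TEL against MN1, and the other probes gave 1.38 and 0.67 (adjusted p = 0.00177 and 0.00416 over all probes kept). Against MN1, del DBD differed by 0.43 (SE 0.28, adjusted p = 0.274), and it passed without MN1-TEL replicate 2 (adjusted p = 0.0152), while all alternatives gave 0.0152 to 0.538. The other probes gave 0.18 and -0.12 there (adjusted p = 0.622 and 0.574). Against MN1-TEL, del DBD differed by -0.68 (SE 0.28, adjusted p = 0.104), and without MN1-TEL replicate 2 it was -1.07 (adjusted p = 0.000396), in a range of adjusted p from 0.000396 to 0.29 over the alternatives. At the other probes MN1-TEL replicate 2 measured 11.07, beside 11.87 on each of the other MN1-TEL arrays, and 12.55, beside 12.67 and 12.50. These probes gave -1.19 and -0.78 (adjusted p = 0.00878 and 0.00428 over all probes kept), so the call between the fusions depended on the probe.

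Ltc4s, the synthase of leukotriene C4, was lowest with MN1, intermediate with del DBD and highest with MN1-TEL. The MN1 arrays gave 7.85, 7.67 and 7.69, the del DBD arrays 9.01, 8.38 and 8.79, and the MN1-TEL arrays 10.30, 10.21 and 9.53. The 3 groups did not overlap, and the MN1-TEL array nearest to del DBD was replicate 3. Groups that did not overlap were found for 60.8% of all genes in MN1-TEL against MN1, 58.6% in del DBD against MN1 and 41.9% in del DBD against MN1-TEL. Ltc4s rose by 2.28 (SE 0.22, adjusted p = 2.50e-05), or 4.85-fold, in MN1-TEL against MN1. It rose by 0.99 (SE 0.22, adjusted p = 0.00702), or 1.99-fold, in del DBD against MN1. It fell by 1.29 (SE 0.22, adjusted p = 0.00226), or 2.44-fold, in del DBD against MN1-TEL, and these 3 calls held in all 20 alternatives. A single probe measured it. Hpgds and Ltc4s thus both rose with MN1-TEL and differed in opposite directions in del DBD against MN1.

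**Figure D2:**
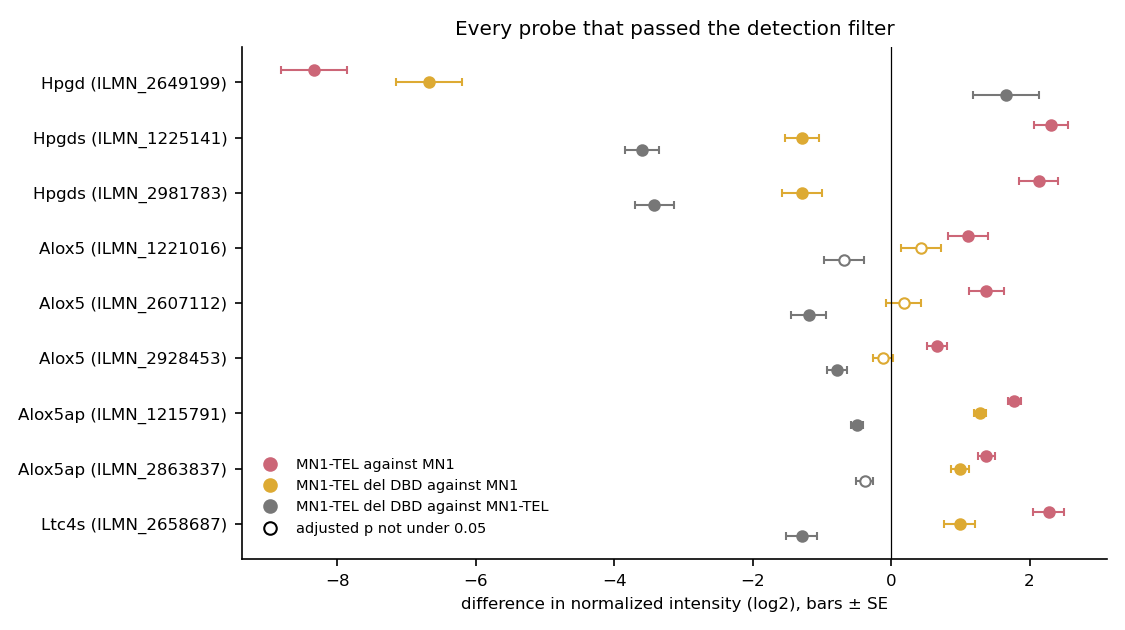
Differences in normalized intensity (log2) with their standard errors at each of the 9 probes that passed the detection filter, from the fit of all 15870 probes, with open points where the adjusted p was not under 0.05. Probes of a gene lay on the same side of 0 where called, and the Alox5 and Alox5ap probes differed in whether the comparison of the fusions was called. The Hpgd points are fitted values that include undetected signals.

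The remaining 4 genes with probes gave little or no signal. Ptgs2, the inducible cyclooxygenase, had 2 probes, and neither was detected on an array, with levels of at most 4.92. Ptges, the inducible synthase of prostaglandin E2, was likewise undetected, although its ILMN_2786442 probe measured 5.04, 5.76 and 5.29 on the MN1-TEL arrays, with a lowest detection p of 0.0363. Lta4h, the hydrolase that makes leukotriene B4, was undetected on all 9 arrays at 4.62 to 4.90. Its only probe is annotated to a cDNA clone record and not, as the other members' probes are, to a RefSeq transcript, and what it binds was not tested. An undetected probe does not show that a transcript is absent. Signals of detected probes began at 5.94 to 6.26 (log2) on these arrays.

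Alox15, a lipoxygenase of macrophages and eosinophils, was detected in MN1-TEL alone, at 1 of its 2 probes. The ILMN_2789023 probe gave 5.51, 6.96 and 6.07 on the MN1-TEL arrays, of which the first, replicate 1, was not detected at a p under 0.01. It gave 4.84, 4.62 and 4.73 with MN1 and 4.73, 4.59 and 4.63 with del DBD, all undetected. The other 7 arrays, all undetected, could not be ranked. With 2 detected arrays it missed the filter by 1 array and was not among the genes tested. The MN1-TEL mean, 6.18, lay close to the limit set by the lowest detected signals, which was 6.17 over the MN1 arrays and 6.01 over the del DBD arrays. It was thus at least 1.12-fold higher than in del DBD, while the bound against MN1 was 1.00-fold, so that no difference could be given there. The other probe was undetected on all 9 arrays, at 4.57 to 4.94.

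**Figure D3:**
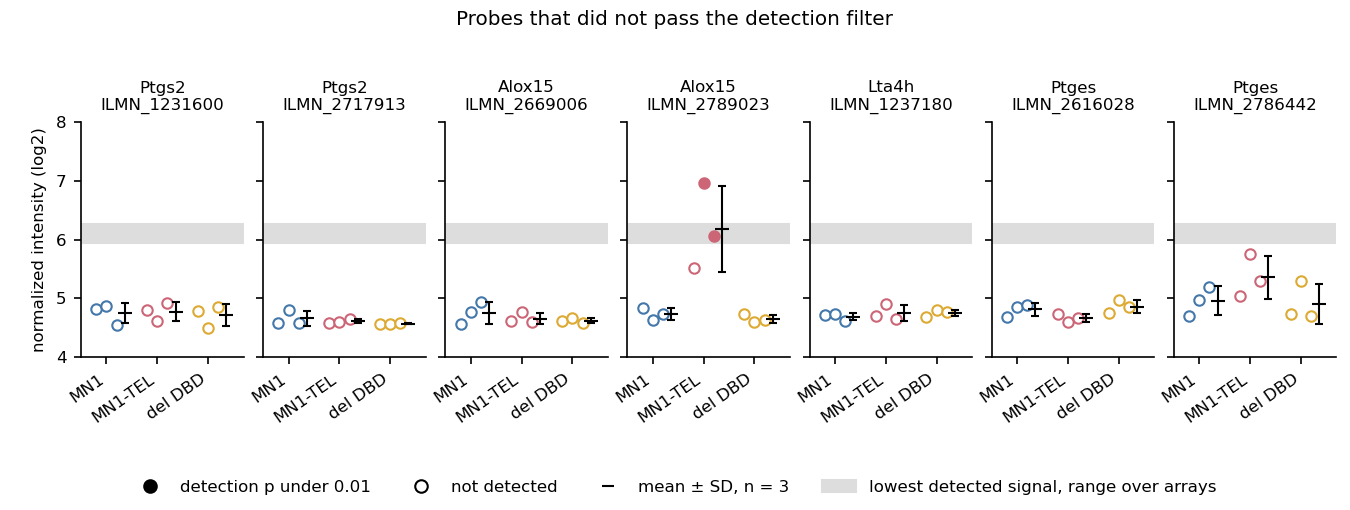
Normalized intensity (log2) of the 7 probes that did not pass the filter, on each array, with filled points for detected signals and a grey band for the lowest detected signal over the arrays. Only the ILMN_2789023 probe of Alox15 has filled points, on 2 MN1-TEL arrays at 6.07 and 6.96.

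The genes that release and recycle arachidonic acid moved both ways, but several of the falls depended on the scaling. Of 23 listed genes 13 were tested, and in MN1-TEL against MN1 6 rose and 5 fell, with a median of 0.18 (log2), where 54.7% of all genes were called. Daglb, a diacylglycerol lipase, rose by 2.24 (SE 0.11, adjusted p = 2.87e-07) and Mgll, the monoacylglycerol lipase that frees arachidonic acid from an endocannabinoid, by 2.34 (SE 0.25, adjusted p = 5.16e-05). The secreted phospholipase gene Pla2g12a fell by 1.61 (SE 0.17, adjusted p = 4.52e-05), and Pla2g6, a calcium-independent phospholipase, was at least 2.51-fold lower (adjusted p = 5.86e-05) and detected on no MN1-TEL array. In del DBD against MN1, with 37.1% of all genes called, 5 rose and 3 fell, with a median of 0.07 (0.01 with undetected signals at their bound), among them Daglb with 1.17, the lysosomal phospholipase gene Pla2g15 with 0.72, Mgll with 1.39 and Faah, an amide hydrolase of endocannabinoids, with 1.43 (adjusted p = 3.26e-05, 0.000255, 0.00244 and 0.00249). Between the fusions, with 29.4% of all genes called, 3 rose and 2 fell in del DBD, with a median of 0.03. Daglb fell by 1.07 (adjusted p = 0.000109), Pla2g12a rose by 1.03 (0.00185), Pla2g6 was at least 1.63-fold higher (0.00309) and the acyl-CoA synthetase gene Acsl3 rose by 0.63 (0.00497). Pla2g4a, the cytosolic phospholipase that supplies much of the arachidonic acid in leukocytes, was detected on no array. Scaling the arrays to 1 median ended the falling calls of Pla2g6, Pla2g12a and Acsl4 in del DBD against MN1 (adjusted p = 0.636, 0.143 and 0.936). In MN1-TEL against MN1 it ended those of Acsl3, Pla2g4b and Acsl4 (0.202, 0.107 and 0.826) and called Lpcat3 higher (0.0260). The falls of Pla2g6 and Pla2g12a in MN1-TEL against MN1 were called in every alternative. Leaving out 1 array moved the number called from 8 to 5 in del DBD against MN1 (MN1 replicate 3 or del DBD replicate 3) and from 5 to 8 between the fusions (MN1-TEL replicate 2).

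The other prostanoid enzymes moved both ways. Of 14 listed genes 8 were tested, and in MN1-TEL against MN1 2 rose and 2 fell (median -0.29), beside 54.7% of all genes called. Tbxas1, thromboxane synthase, rose by 1.17 (SE 0.24, adjusted p = 0.00244) and the carbonyl reductase gene Cbr3 by 1.20 (SE 0.22, adjusted p = 0.00133). Akr1c18, an aldo-keto reductase, fell by 2.31 (SE 0.42, adjusted p = 0.00126), and Ptgds, the lipocalin-type synthase of prostaglandin D2, was at least 2.43-fold lower (adjusted p = 0.000135) and detected on no MN1-TEL array. The 2 synthases of prostaglandin D2, Ptgds and Hpgds, thus differed in opposite directions in MN1-TEL against MN1. In del DBD against MN1 1 rose and 4 fell (median -0.48), beside 37.1% of all genes called, with Tbxas1 at 0.74 (adjusted p = 0.0352), Akr1c18 at -3.28 (adjusted p = 0.000282), Ptgds at least 2.51-fold lower (0.00120), Cbr1 at -0.68 (0.00301) and Cbr3 at -0.71 (0.0298). The Cbr3 call there was lost without MN1 replicate 1 or 2 or del DBD replicate 2 or 3 (adjusted p = 0.0710 to 0.104). The Tbxas1 call was lost without these same arrays and without del DBD replicate 1 (0.0696 to 0.117). Where both were lost, the number called was 3 in place of 5 and 0 rose. Scaling the arrays to 1 median ended the calls of Cbr1 and Cbr3 (0.305 and 0.463). Between the fusions Cbr3 fell by 1.91 in del DBD (adjusted p = 0.000232) and Cbr1 by 0.42 (0.0375), and 0 rose (median -0.39), beside 29.4% of all genes called. That Cbr1 call was lost when any single array except the replicates numbered 3 was left out (0.0528 to 0.128). The number called was then 1 in place of 2 without MN1 replicate 1 or 2 or del DBD replicate 1 or 2. Ptges2 and Ptges3, the other synthases of prostaglandin E2, were detected on all 9 arrays and differed by -0.36 to 0.34, with no call in the 3 comparisons. In MN1-TEL against MN1, however, Ptges2 was called without MN1 replicate 1 (0.59, adjusted p = 0.0123) and with scaling to 1 median (0.89, adjusted p = 0.00210). Ptges3 was called there without MN1-TEL replicate 2 (-0.45, adjusted p = 0.0220) and with array weights (-0.42, adjusted p = 0.0315). Between the fusions Ptges3 was called without MN1-TEL replicate 2 (0.44, adjusted p = 0.0398).

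Of 18 other lipoxygenase, leukotriene and epoxide genes 11 were tested, and 6 rose and 2 fell in MN1-TEL against MN1 (median 0.91), where 54.7% of all genes were called. In del DBD against MN1, with 37.1% called, 7 rose and 1 fell (median 0.81, or 0.62 with undetected signals at their bound). Alox12, counted among these 7, was undetected in both del DBD and MN1. Mgst1, a microsomal glutathione transferase, was undetected with MN1 and at least 42.5-fold higher in MN1-TEL (adjusted p = 1.62e-08) and at least 34.9-fold higher in del DBD (4.21e-08). Dpep2, a dipeptidase that trims cysteinyl leukotrienes, rose by 3.64 (SE 0.14, adjusted p = 8.97e-08) and 3.19 (SE 0.14, adjusted p = 3.39e-07). Cyp4f18, which hydroxylates leukotriene B4 in mouse neutrophils, was at least 7.45-fold and at least 6.25-fold higher (adjusted p = 5.91e-06 and 2.02e-05), detected on 2 of 3 MN1 arrays. Cotl1, a protein that binds the Alox5 lipoxygenase, rose by 0.96 in MN1-TEL (adjusted p = 2.44e-05), and Mgst2, which can also make leukotriene C4, by 1.38 in del DBD (0.000108). Between the fusions 2 rose and 3 fell in del DBD (median 0.27, or 0 with bounds), beside 29.4% of all genes called. The platelet-type lipoxygenase gene Alox12 was at least 2.34-fold lower (adjusted p = 0.00454) and undetected in del DBD, while Mgst3 rose by 0.66 (0.00601), Cotl1 fell by 0.33 (0.0234) and Dpep2 fell by 0.44 (0.0429). The Cotl1 call was lost without MN1-TEL replicate 1 or del DBD replicate 1 or 2 (0.0631 to 0.0774). The Dpep2 call was lost without any single array except MN1 replicate 2 and MN1-TEL replicate 1 (0.0539 to 0.131). The number called there was 2 or 3 in place of 5 without MN1 replicate 1 or 3, MN1-TEL replicate 1 or any del DBD array.

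**Figure D4:**
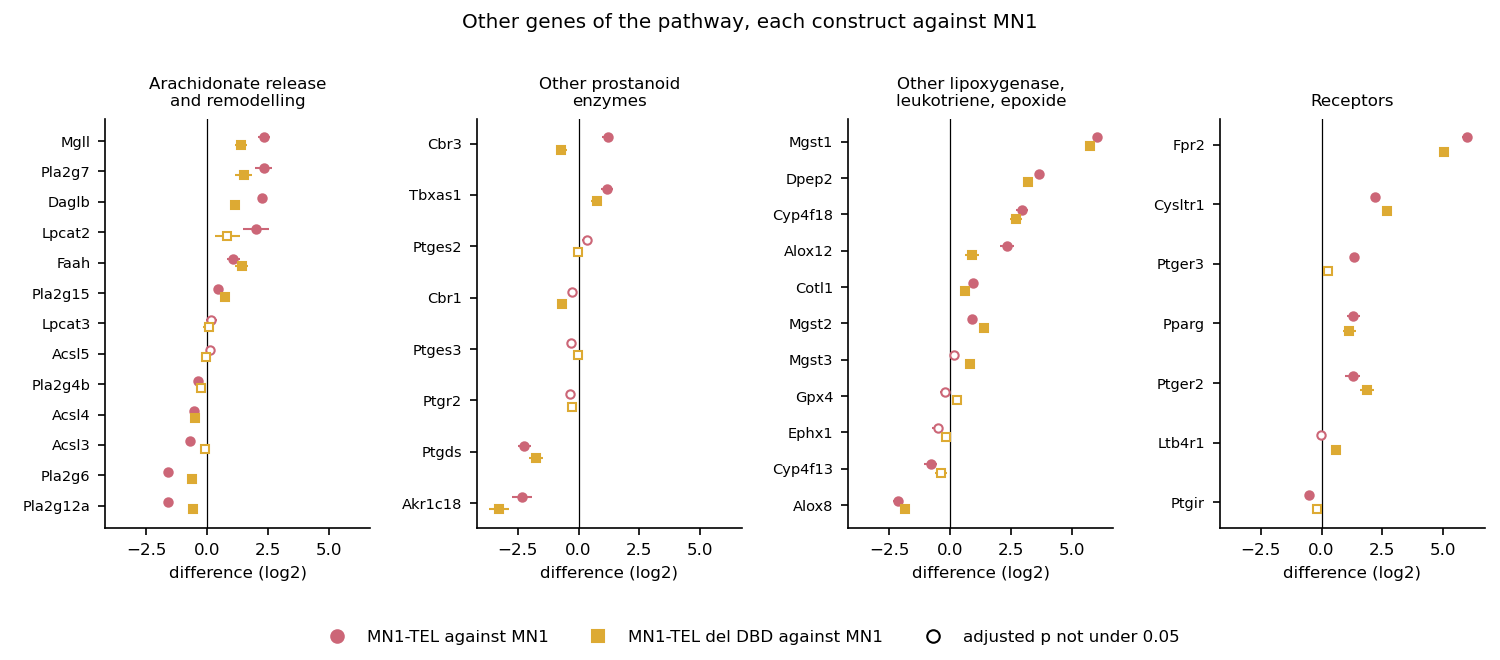
Differences (log2, bars ± SE) of the other pathway genes tested, in MN1-TEL against MN1 (circles) and del DBD against MN1 (squares), with open symbols where the adjusted p was not under 0.05. Both comparisons use the same MN1 arrays, and Mgst1, Fpr2 and Dpep2 lie farthest to the right. The points of genes undetected in a group, such as Mgst1 and Fpr2 with MN1, are fitted values and not bounds.

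Of 16 receptor genes 7 were tested, and 5 rose and 1 fell in MN1-TEL against MN1 (median 1.30), while 5 rose and 0 fell in del DBD against MN1 (median 1.14, or 1.02 with bounds). Over all genes 54.7% and 37.1% were called in these comparisons. Fpr2, a receptor for formyl peptides and lipoxin, was at least 26.9-fold higher in MN1-TEL (adjusted p = 2.84e-08) and at least 14.1-fold higher in del DBD (1.18e-07), undetected with MN1. Cysltr1, the receptor for cysteinyl leukotrienes, was at least 2.72-fold and at least 3.81-fold higher (6.47e-06 and 3.49e-06), also undetected with MN1. Ptger3, a receptor for prostaglandin E2, rose by 1.31 in MN1-TEL (0.000129) and fell by 1.07 in del DBD against MN1-TEL (0.00119). Ptger2, another such receptor, was at least 2.03-fold higher in del DBD (0.000976), detected on 1 of 3 MN1 arrays. Pparg, a nuclear receptor of fatty acid derivatives, rose by 1.30 and 1.14 (0.00255 and 0.00860). Between the fusions, with 29.4% of all genes called, 1 rose and 2 fell (median 0.31). Fpr2 fell by 0.93 (0.00553) and Ltb4r1, the high-affinity receptor for leukotriene B4, rose by 0.61 (0.0111). Of 4 transporter genes 2 were tested, Abcc4 and Slco3a1, and limma called neither in the 3 comparisons, with differences of -0.28 to 0.13. With scaling to 1 median both were called higher in MN1-TEL against MN1, Abcc4 by 0.63 (adjusted p = 0.00254) and Slco3a1 by 0.52 (adjusted p = 0.0444).

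Markers of mast cells and basophils were set beside these values, since mast cells are known to express Hpgds, Alox5 and Ltc4s. Of 13 markers 12 were tested, and 3 rose and 2 fell in MN1-TEL against MN1, where 54.7% of all genes were called. In del DBD against MN1 1 rose and 6 fell, beside 37.1% of all genes called, and in del DBD against MN1-TEL 2 rose and 6 fell, beside 29.4%. Their summed level was 16.79 to 16.92 in MN1, 16.65 to 17.15 in MN1-TEL and 16.35 to 16.60 in del DBD (log2). In MN1-TEL against MN1 the mast cell protease genes Cma1 and Mcpt4 rose by 1.33 and 1.89 (adjusted p = 0.00269 and 0.0134) and the basophil protease gene Prss34 by 1.19 (0.0282). The basophil protease gene Mcpt8 fell by 1.49 there (0.000688) and Hdc, histidine decarboxylase, by 0.78 (0.00108). The alpha chain gene of the IgE receptor, Fcer1a, differed by -2.73 in del DBD against MN1, its beta chain Ms4a2 by -1.37, the transcription factor Gata2 by -0.70, Cma1 by -1.14, the tryptase gene Tpsab1 by -1.06 and Mcpt4 by -2.12 (adjusted p = 0.00343 to 0.0264), while Prss34 rose by 1.26 (0.0313). Between the fusions Fcer1a differed by -3.64, Ms4a2 by -1.59, Gata2 by -0.67, Cma1 by -2.48, Tpsb2 by -1.41 and Mcpt4 by -4.01 (adjusted p = 0.000194 to 0.0340). Mcpt8 and Hdc rose there by 1.73 and 0.50 (0.000724 and 0.0234). Cpa3, carboxypeptidase A of mast cells, was at 14.97 ± 0.01 with MN1-TEL, 15.04 ± 0.05 with del DBD and 15.07 ± 0.03 with MN1 (SD, n = 3), with no call. The remaining marker, Slc18a2, was not called either. MN1-TEL replicate 2, the array in which the brightest Alox5 probe was low, had the lowest Hpgds of the MN1-TEL arrays (9.64). On it Ltc4s (10.21) lay between the other arrays of the group, and Alox5ap at its brighter probe (14.93) was the highest. That array also differed from the mean of the other MN1-TEL arrays in several marker lists. The median deviation was -0.77 for c-kit progenitor markers, -0.52 for mast cell and basophil markers, -0.01 for megakaryocyte and platelet markers, 0.30 for neutrophil markers, 0.45 for monocyte and macrophage markers and 0.52 for erythroid markers. The other 8 arrays, each set against its own group, ranged from -0.20 to 0.48 for c-kit progenitor markers. They ranged from -0.76 to 0.57 for megakaryocyte and platelet markers and from -0.39 to 0.58 for erythroid markers. Both of these ranges hold the values of MN1-TEL replicate 2. For neutrophil markers the range was -0.23 to 0.13, for monocyte and macrophage markers -0.27 to 0.31, and for mast cell and basophil markers -0.35 to 0.52. The part of mast cells and basophils in the Hpgds and Alox5 differences was not tested.

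**Figure D5:**
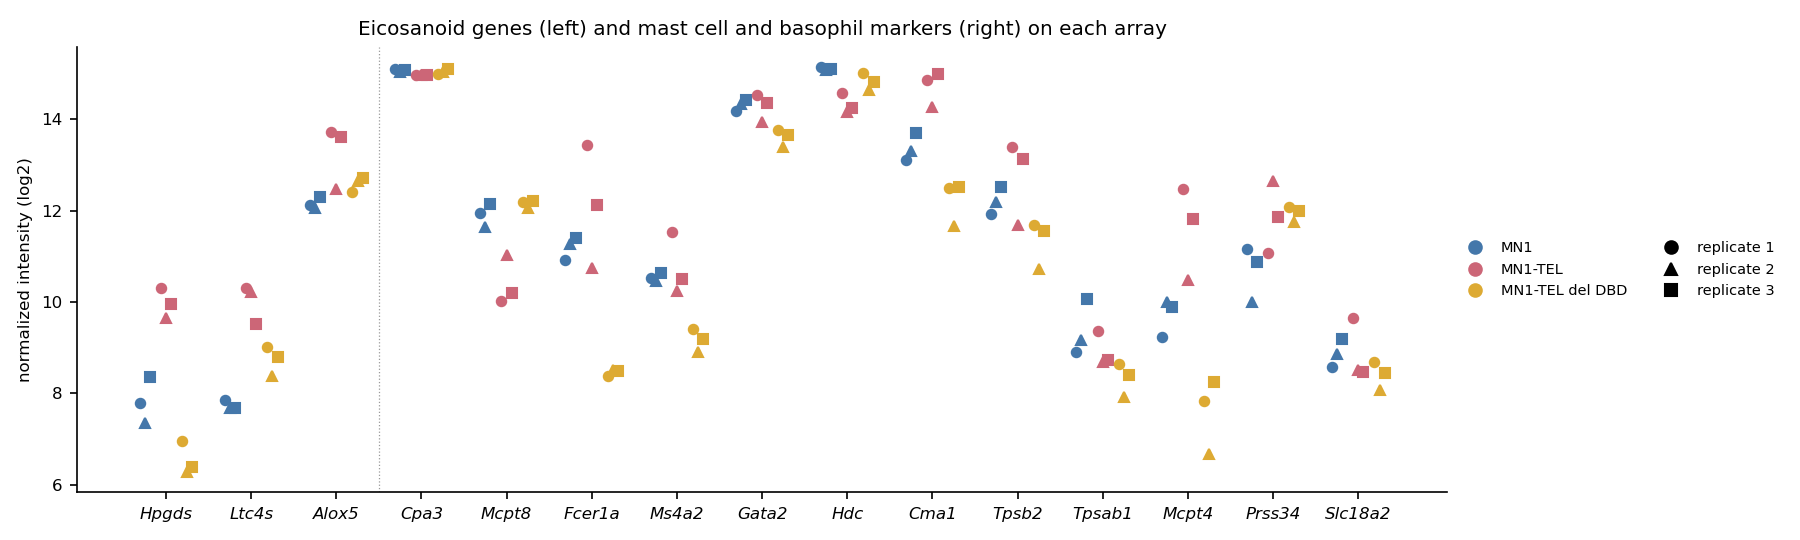
Normalized intensity (log2) on each array of Hpgds, Ltc4s and Alox5 and of the 12 tested mast cell and basophil markers, with colours for the groups and symbol shapes for the replicates. Fcer1a, Ms4a2, Gata2, Cma1, Mcpt4 and Hpgds are lowest in del DBD, Mcpt8 and Hdc are lowest in MN1-TEL, Prss34 and Ltc4s have their lowest mean in MN1, and the group means of Cpa3 lie between 14.97 and 15.07.

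The other marker lists are given with the same 54.7%, 37.1% and 29.4% of all genes called in the 3 comparisons. Of 11 neutrophil markers 10 were tested, and 9 rose and 0 fell in MN1-TEL against MN1, 8 rose and 0 fell in del DBD against MN1, and 1 rose and 6 fell between the fusions, with summed levels of 12.81 to 13.03 in MN1, 16.93 to 17.08 in MN1-TEL and 16.50 to 16.60 in del DBD. Of 11 monocyte and macrophage markers 6 were tested, and 5 rose and 1 fell in each fusion against MN1, with summed levels of 11.97 to 12.30, 13.49 to 13.80 and 13.36 to 13.50. Of 8 eosinophil markers 2 were tested, Prg2 and Ear6, and both rose in MN1-TEL against MN1, with summed levels of 8.88 to 9.57 in MN1, 10.95 to 12.24 in MN1-TEL and 8.44 to 9.50 in del DBD. At their brightest probes Epx and Siglecf were detected on no array, Il5ra on 1 MN1-TEL array and Ccr3 on 1 del DBD array. Il5ra averaged 4.71 with MN1, 6.14 with MN1-TEL and 5.09 with del DBD, and Ccr3 4.86, 5.64 and 5.61. These means count undetected signals as measured. Of 10 megakaryocyte and platelet markers 6 were tested, and 1 rose and 4 fell in MN1-TEL against MN1, with summed levels of 12.87 to 13.39, 11.66 to 12.48 and 11.90 to 12.22. Of 7 c-kit progenitor markers 3 rose and 2 fell in MN1-TEL against MN1, and 2 rose and 3 fell in del DBD against MN1. Their summed levels were 13.87 to 14.07, 14.05 to 14.91 and 12.70 to 12.97. Kit, Cd34 and Myb averaged 13.66, 11.09 and 7.94 with MN1 and 12.16, 10.48 and 7.18 with del DBD. With MN1-TEL they averaged 14.39, 10.14 and 6.63. Spi1, Runx1, Ptprc and Cebpa averaged 7.45, 8.02, 7.48 and 6.03 with MN1 and 8.46, 9.20, 7.88 and 6.58 with del DBD. With MN1-TEL they averaged 8.77, 9.36, 7.77 and 5.86. Cebpa was detected on 1 array with MN1 and 1 with MN1-TEL, and Ptprc on 2 with MN1-TEL. Of 8 erythroid markers 5 were tested, and 3 fell in MN1-TEL against MN1 while 2 rose and 3 fell in del DBD against MN1, with summed levels of 11.71 to 12.35, 11.04 to 12.83 and 14.72 to 14.96. The 2 that rose were the globin genes Hbb-bs and Hbb-bt, which set these sums, and Epor, Klf1 and Alas2 were those that fell in both comparisons. Of the dendritic cell list 2 of 7 were tested, H2-Aa and Cd74, and both rose in each fusion against MN1. Its other genes missed the filter, and the brightest probes of Flt3, Itgax, Zbtb46 and Xcr1 were detected on no array. The B lymphoid list had 1 of 5 tested, Cd79b, which fell in MN1-TEL and rose in del DBD. The stroma and endothelium list had 1 of 8 tested, Pdgfrb, which rose in del DBD. Neither eosinophil marker was called in del DBD against MN1, where 1 megakaryocyte and platelet marker rose and 3 fell. In del DBD against MN1-TEL Prg2 and Ear6 fell, and 1 monocyte and macrophage marker rose and 2 fell. There 1 megakaryocyte and platelet marker rose and 1 fell, 1 c-kit progenitor marker rose and 1 fell, and 2 erythroid markers rose. Cd79b rose there, while H2-Aa, Cd74 and Pdgfrb were not called. The part of all these cells in the differences of the eicosanoid genes was not tested.

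For the 3 members with the widest range of group means, the genes with the most similar profiles were sought by Pearson correlation over the 9 arrays. Hpgd, with a range of 8.34 that counts undetected signals as measured, was most like Ddx4 (r = 0.995), Depp1 (r = 0.992) and Gria2 (r = 0.990), which averaged 9.94, 8.18 and 10.97 with MN1 and 4.66, 4.72 and 5.02, below the lowest detected signals, with MN1-TEL. With del DBD these 3 genes averaged 5.46, 5.35 and 5.75, also below the lowest detected signals. Hpgds, with a range of 3.42, was most like Mns1 (r = 0.992), Cobl (r = 0.988) and Sytl2 (r = 0.988). Ltc4s, with a range of 2.28, was most like the chemokine gene Cxcl16 (r = 0.994), Arhgap25 (r = 0.994) and Nacc2 (r = 0.990). Cxcl16 averaged 4.78 with MN1 and 5.63 with del DBD, below the lowest detected signals, so its correlation counts signals that could not be ranked. The arrays fall into 3 groups, so these values mostly reflect the order and spacing of 3 group means and carry no test.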

How the data were processed

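Total RNA of 9 samples was measured on Illumina mouse arrays, and groups and replicate numbers come from the sample titles. GenomeStudio 2010.3 is named per the submitters' processing notes. Its settings were not found in the labels or headers. The main table deposited by the authors holds an intensity per probe on a linear scale, without normalization as judged from its values, and per the file headers each is followed by a detection p-value. The authors also deposited background-subtracted, quantile normalized intensity values, as judged from the values, which served as an alternative. Their table of group means was not used.

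The background was corrected by normexp with negative controls inferred from the detection p-values, followed by an offset of 16, quantile normalization and log2 (neqc, limma 3.58.1, R 4.3.3). Of 45281 probes 15870 were kept. Annotation gave 34885 probes 1 symbol, 18 several and 10378 none, and 34807 symbols were matched through the Entrez identifier. Where several probes of a gene were kept, the one with the highest mean stood for it. All 9 arrays entered 1 limma fit with group as the factor and two-sided moderated tests, with 6 residual degrees of freedom. Precision is set by the 3 arrays per group. The steps were tested on simulated data.

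The eicosanoid genes and all lists were chosen with earlier results of these data known. Named were the 10 genes, per list and comparison up to 4 called genes with the smallest adjusted p whose groups did not overlap, the mast cell and other markers given, and the 3 genes most like each of 3 members. The lists were arachidonate release and remodelling, other prostanoid enzymes, other lipoxygenase, leukotriene and epoxide enzymes, receptors, transporters, and cell type markers. Alternatives changed the scaling, offset, starting table, filter, probe choice, weights, variance model, groups in the fit and replicate block, and left out each array.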

Additional observations from a re-analysis of the deposited data

How the results depend on the processing

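Over 20 alternatives, the number of eicosanoid genes called ranged from 4 to 6 in MN1-TEL against MN1 and from 3 to 5 in del DBD against MN1. In del DBD against MN1-TEL it was 4 and ranged from 2 to 5. It was 2 with the authors' normalized values and with only the compared groups in the fit, and 5 with scaling to the same median and with the mean of a gene's probes. With single arrays left out it was 5 throughout in the first comparison, 4 to 5 in the second and 2 to 4 in the last. The count of 6 included Alox15, which without the filter was called in MN1-TEL against MN1 (1.45, adjusted p = 0.00391). It was then also called in del DBD against MN1-TEL (-1.53, adjusted p = 0.00662). Those Alox15 values count undetected signals as measured. Among 297 values of the 5 tested genes none reversed, 20 lost and 8 gained the call. Hpgd had no value where detection on all 9 arrays was required. The calls of Hpgd (0.0859 with the authors' values) and Alox5ap between the fusions were those lost, and the gains were calls of Alox5. The cause was not tested. Scaling arrays to the same median moved the median of all genes in MN1-TEL against MN1 from -0.06 to 0.40 and in del DBD against MN1 from -0.04 to 0.34. Of the other pathway genes, 5 with a call under either scaling then changed sign in MN1-TEL against MN1. None was called with both signs, and genes called under neither scaling were not counted. Pla2g4b (0.23, adjusted p = 0.107), Acsl4 (0.041, adjusted p = 0.826) and Ptgir (0.044, adjusted p = 0.777) lost their calls. Ltb4r1 (0.38, adjusted p = 0.0463) and Slco3a1 (0.52, adjusted p = 0.0444) gained a call. Same-numbered arrays deviated together with correlations of -0.157 to 0.184, so the numbers were not taken as pairs, and 1 of 18 comparisons matched an array best with its own number. With the replicate block 5, 4 and 3 eicosanoid genes were called, and Alox5ap between the fusions missed the threshold (adjusted p = 0.0695). Signals below the lowest detected level, 5.94 to 6.26 (log2), could not be ranked.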
